A study of Mus musculus with 3 samples.

Results

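The transcripts of sugar breakdown and of the oxygen response were examined in macrophages that had met bacterial Lipid A before. The set comprised 35 genes, chosen by symbol, of 55536 annotated genes. It held 3 glucose and hexose transporters, 10 genes of upper glycolysis (hexokinase to triose phosphate isomerase), 6 of lower glycolysis (glyceraldehyde phosphate dehydrogenase to pyruvate kinase), 2 regulators of phosphofructokinase, 4 genes of lactate formation and export, 6 of the pentose phosphate pathway and 4 of the hypoxia response. The glycolytic enzymes, summed over isozymes, were at 53.9 TPM (a length-corrected level) or more on average at every step except phosphofructokinase, at 16.6 TPM, and at most steps with several isozymes 1 gene gave most of the transcript. The hexose transporter Slc2a6, the hexokinase Hk3, the platelet-type phosphofructokinase Pfkp, the aldolase Aldoa, the enolase Eno1 and the lactate dehydrogenase Ldha were the leading genes. In an edgeR test, 0 of the 34 members tested were called more variable between libraries than genes of like abundance. Of all genes tested 1.96% were called.

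Total RNA from the cytosolic fraction, depleted of ribosomal RNA, was sequenced from bone marrow-derived macrophages of the strain C57BL/6J, for which the labels give no age. The cells received Lipid A, the TLR4-binding part of lipopolysaccharide, at 100 ng/ml for 12 h, were kept without it for 12 h, and received 100 ng/ml once more for 90 min before harvest. The 3 libraries, replicates 1 to 3, form 1 group, and the same donor record stands in all 3 labels, so every SD below measures the spread between these samples only. Cells that met Lipid A once or never were not analysed here, and the values are therefore levels, not responses.

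Glycolysis turns glucose into pyruvate in the cytosol and yields ATP and NADH, and lactate dehydrogenase returns NADH to NAD+ when pyruvate becomes lactate. The pentose phosphate pathway branches off at glucose phosphate and gives NADPH and ribose phosphate. In macrophages, Toll-like receptor signalling is known to raise glucose use, and the transcription factor HIF-1alpha, which prolyl hydroxylases mark for destruction in the presence of oxygen, is known to drive many glycolytic genes by binding short hypoxia response elements near them.

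The gene tables held 40637857, 70407572 and 49678390 expected counts over annotated genes in replicates 1, 2 and 3. TPM, the unit of level, is corrected for transcript length and scaled to a common total in each library, so that genes can be compared with each other. The 7SL RNA genes Rn7s1 and Rn7s2 took 60.4, 60.6 and 56.4% of all TPM in replicates 1, 2 and 3, which lowers the TPM of every mRNA by a common factor in each library. The second of the 2 deposited transcript tables gave them 24.7, 30.1 and 21.9%. It gave nuclear protein-coding genes 17.7, 17.9 and 15.1%, against 33.2, 29.6 and 28.0% in the gene tables. The cause of this gap was not tested. All 7 macrophage markers were detected, with mean levels between 36.6 and 3262 TPM. Of 6 neutrophil markers 2 were detected (summed level of the list 7.72 to 12.7 TPM, Ly6g and Retnlg at 0 counts), of 5 dendritic cell markers 1 was (1.52 to 1.87 TPM), and none of the 19 markers of T and NK, B, erythroid, stromal and endothelial cells was.

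At a threshold of 1 TPM or more in every library, 31 of the 35 members were detected, against 16.7% of all annotated genes and 40.1% of nuclear protein-coding genes. The members below it were the aldolase Aldoc, the lactate dehydrogenase Ldhb, the monocarboxylate transporter Slc16a1 and the prolyl hydroxylase Egln3. The members together took 0.451, 0.485 and 0.441% of all counts in replicates 1, 2 and 3. Mean levels ranged from 0.0100 TPM for Egln3 to 334 TPM for Gapdh, and 13 members lay at 50 TPM or more.

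**Figure D1:**
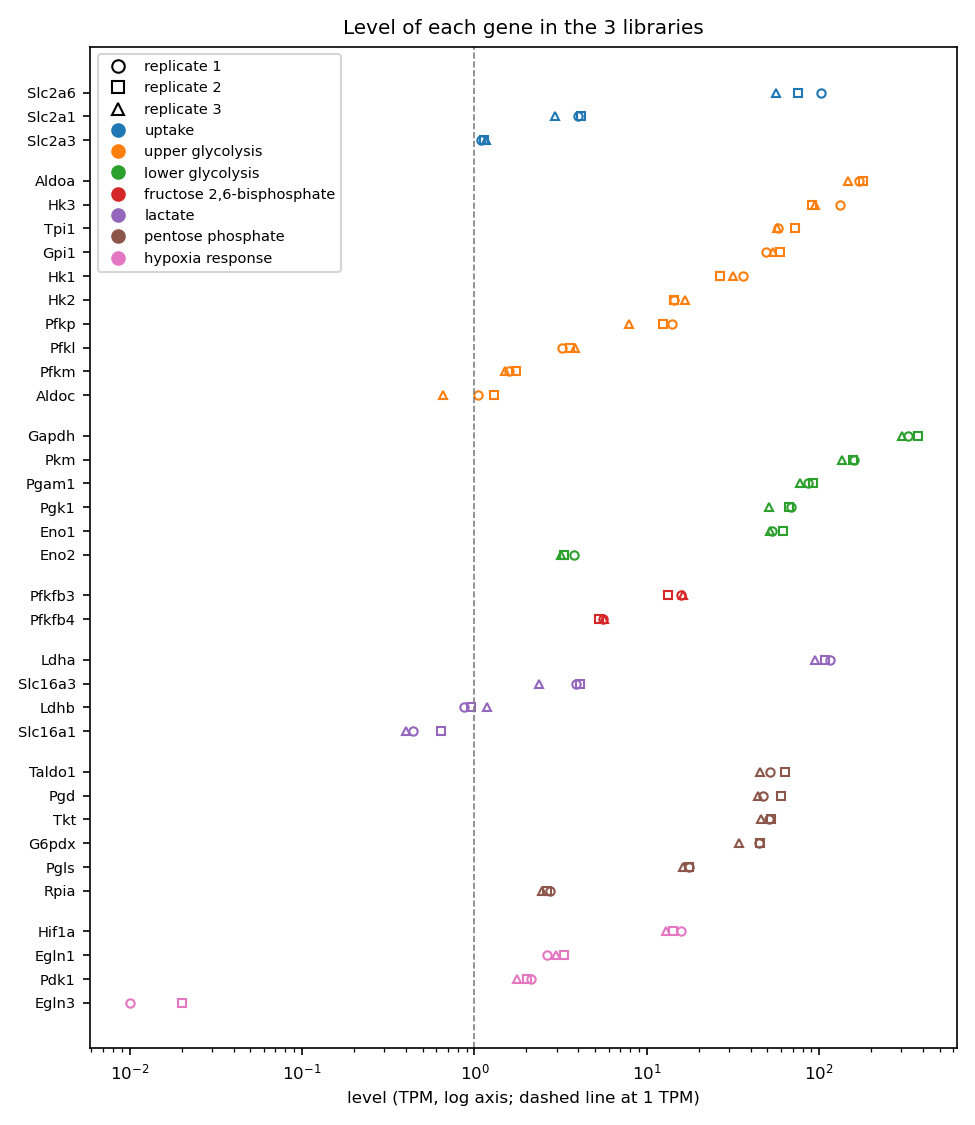
Level of each of the 35 genes in each of the 3 libraries, in TPM on a log axis, grouped by role and ordered by mean level within a role; circles, squares and triangles are replicates 1, 2 and 3, and the dashed line is 1 TPM. Slc2a6, Hk3, Aldoa, Gapdh, Pkm and Ldha stand at the high end of their roles, and Egln3, at 0 in replicate 3 and so not drawn there, stands lowest.

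Of the 3 listed sugar transporters Slc2a6 (chr2:27021363-27027998 on mm10) was the highest, and it encodes a hexose transporter known from lysosomal membranes. Its level is therefore not read as uptake into the cell. Slc2a6 was at 102, 75.7 and 56.4 TPM in replicates 1, 2 and 3. Slc2a1, the widespread glucose transporter of the plasma membrane (chr4:119108711-119137983), was at 4.0, 4.15 and 2.94 TPM, and Slc2a3, a high-affinity glucose transporter, at 1.09, 1.13 and 1.17 TPM. The order of the 3 genes was the same in every library and their ranges did not overlap, and Slc2a6 was the only one of them with its highest value in replicate 1. The log2 ratio of Slc2a6 to Slc2a1 was 4.37 ± 0.26 (SD, n = 3), that is 20.7-fold, and that of Slc2a1 to Slc2a3 was 1.69 ± 0.32. Slc2a6 made up 94.0 ± 1.11% of the summed TPM of the 3 transporters. Each of these ratios is over 3 libraries, for which the smallest two-sided p of an exact sign-flip test is 0.25, so no p is given for any ratio.

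The first reaction, phosphorylation of glucose by hexokinase, had most of its transcript from Hk3 (chr13:55005985-55021385), the hexokinase known from myeloid cells. Hk3 was at 132, 90.5 and 94.7 TPM in replicates 1, 2 and 3, with replicate 1 apart from the other libraries. Hk1, the isozyme of most tissues that binds mitochondria, was at 36.2, 26.7 and 31.6 TPM, and Hk2, the isozyme known as inducible by insulin and by HIF-1alpha, at 14.3, 14.4 and 16.8 TPM. The 3 ranges did not overlap. The log2 ratio of Hk3 to Hk1 was 1.74 ± 0.14, and that of Hk2 to Hk1 was -1.05 ± 0.25 (SD, n = 3). Hk3 gave 69.1 ± 3.11% of the summed hexokinase TPM. A share of 33.9 ± 1.88% of the Hk2 level in the first transcript table was assigned to a short noncoding transcript (ENSMUST00000168725.1), which the second transcript table lists at 0%. In the second table the log2 ratio of Hk2 to Hk1 was -1.73 ± 0.23, and the part of this transcript in that shift was not tested.

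Phosphofructokinase, the enzyme of the main regulated step, had the lowest level of any glycolytic enzyme step, 18.8, 17.8 and 13.2 TPM summed over its 3 genes in replicates 1, 2 and 3. Pfkp, the platelet-type subunit (chr13:6579768-6648777), was at 14.0, 12.5 and 7.89 TPM. Pfkl, the liver-type subunit, was at 3.21, 3.59 and 3.82 TPM and Pfkm, the muscle-type subunit, at 1.58, 1.74 and 1.51 TPM. Pfkp was above Pfkl, and Pfkl above Pfkm, in every library, but Pfkp was lowest and Pfkl highest in replicate 3. The share of Pfkp in the summed level was accordingly 74.5, 70.1 and 59.7% in replicates 1, 2 and 3, and the log2 ratio of Pfkl to Pfkp was -1.66 ± 0.55. Pfkp shares 748 exonic bases with Pitrm1 on the opposite strand, a gene at 7.54 TPM on average. No source used here says if counting respected strand, so reads over those bases cannot be assigned to either gene. Pfkm (18 bases with Senp1), Tpi1 (34 with Spsb2), Gapdh (68 with Iffo1) and G6pdx (418 with Ikbkg) have such overlaps with a partner above 1 TPM as well. The bifunctional enzymes that set the amount of the activator of phosphofructokinase, Pfkfb3 and Pfkfb4, were at 15.1 ± 1.58 and 5.49 ± 0.178 TPM (SD, n = 3), with a log2 ratio of 1.45 ± 0.11.

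The other steps of upper glycolysis were higher. Gpi1, which converts glucose phosphate to fructose phosphate, was at 53.9 ± 5.05 TPM and Tpi1, which interconverts the triose phosphates, at 62.2 ± 8.71 TPM (SD, n = 3). Aldoa, the aldolase of muscle and of most other cells (chr7:126795234-126800751), was at 169, 180.1 and 147 TPM in replicates 1, 2 and 3, while Aldoc, the brain aldolase, was at 1.05, 1.29 and 0.660 TPM. Their values were a log2 ratio of 7.42 ± 0.35 apart, and Aldoa gave 99.4 ± 0.134% of the summed level. The annotation holds a second entry under the symbol Aldoa, directly upstream on the same chromosome, which had 1, 3 and 1 counts and was not added.

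In lower glycolysis Gapdh (chr6:125161715-125166467), which makes NADH from glyceraldehyde phosphate, was the highest member of the whole set, at 329, 372 and 302 TPM in replicates 1, 2 and 3. Its range lay above that of every other step. Pgk1, the first enzyme of the pathway to make ATP, was at 62.4 ± 9.96 TPM, and Pgam1, phosphoglycerate mutase, at 85.2 ± 7.55 TPM. Eno1, the widespread enolase, was at 55.6 ± 5.27 TPM and Eno2, the neuronal enolase, at 3.41 ± 0.333 TPM (SD, n = 3). Their log2 ratio was 4.02 ± 0.20. Eno1 has a near-identical copy, Eno1b, whose transcript matched that of Eno1 at 94.7% of 1798 aligned positions. The gene table gave Eno1b 67.9, 184 and 139 counts and Eno1 5964, 13139 and 8189 counts in replicates 1, 2 and 3, while the second transcript table put Eno1b at 0.0226 TPM on average, so the split of reads between the copies is uncertain. The counts of Eno1b were small beside those of Eno1. Among the detected members the uncertainty the authors' program gave for a count (its posterior SD) reached at most 0.649% of the count, for Pgk1.

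Pkm (chr9:59656368-59679375), the pyruvate kinase that closes the pathway, was at 159, 156 and 135 TPM in replicates 1, 2 and 3. The gene carries a pair of mutually exclusive exons. The upstream one gives the M1 enzyme of adult muscle and brain, and the downstream one gives the M2 enzyme of proliferating and many immune cells, whose activity is known to respond to fructose bisphosphate. Each is exon 9 of its transcript in the annotation. They are shown because the reads that fall in them separate the isoforms, in GENCODE M21 sequence on the plus strand of mm10, with capitals at the positions where the exons differ from each other. The exon of Pkm-201 lies at chr9:59675568-59675734 and that of Pkm-202 at chr9:59675029-59675195.
Pkm-201, downstream exon: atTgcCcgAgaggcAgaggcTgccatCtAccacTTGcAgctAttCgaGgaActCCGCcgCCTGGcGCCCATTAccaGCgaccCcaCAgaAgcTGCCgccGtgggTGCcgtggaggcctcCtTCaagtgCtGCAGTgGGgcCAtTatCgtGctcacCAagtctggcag
Pkm-202, upstream exon: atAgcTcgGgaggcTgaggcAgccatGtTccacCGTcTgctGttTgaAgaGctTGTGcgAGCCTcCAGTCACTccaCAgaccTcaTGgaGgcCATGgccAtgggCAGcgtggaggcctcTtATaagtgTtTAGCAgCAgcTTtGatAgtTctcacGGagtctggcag
Both exons are 167 bases long and differ at 64 positions, which leaves 61.7% of positions identical. Pkm-201, with the downstream exon, took 84.9, 86.6 and 85.0% of the TPM of Pkm in replicates 1, 2 and 3. Pkm-202, with the upstream exon, took 14.6, 13.0 and 14.1%. The M2-type transcript thus led in every library with a spread of 0.970 percentage points (SD). The second transcript table, from the same libraries, gave 84.6 ± 0.855% and 14.3 ± 0.807% for Pkm-201 and Pkm-202.

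**Figure D2:**
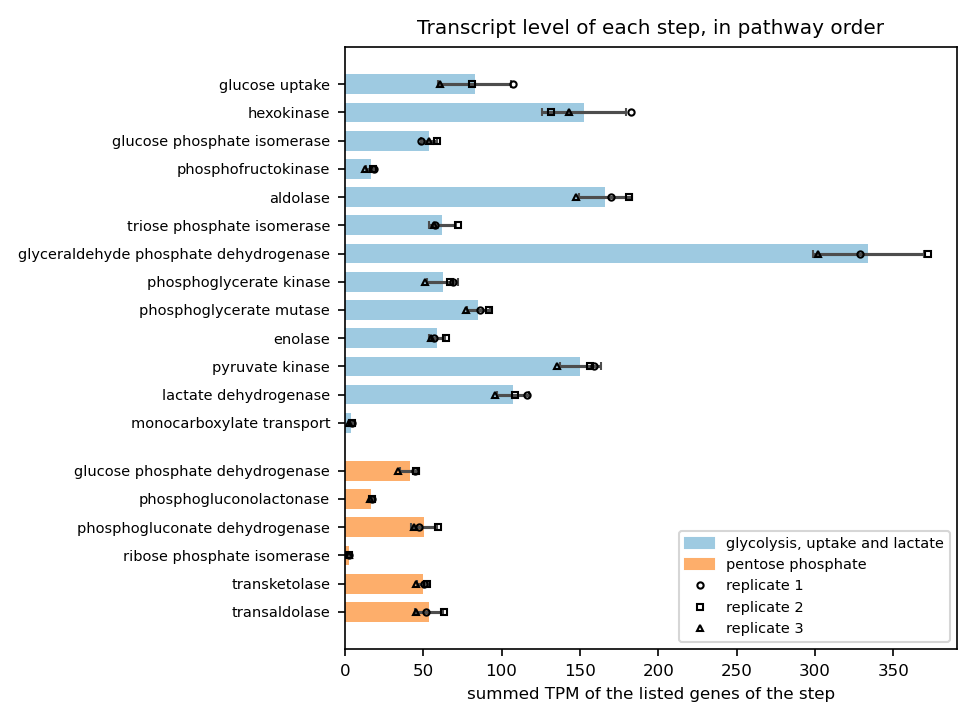
Summed TPM of the listed genes at each step, in pathway order from the top; bars are means over the 3 libraries from 0, error bars are SD (n = 3) and symbols are single libraries. The bar of glyceraldehyde phosphate dehydrogenase is the longest and that of phosphofructokinase, at 16.6 ± 2.98 TPM, the shortest of the glycolytic enzymes. The bar labelled glucose uptake is mostly Slc2a6.

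Summed over isozymes, the steps fell into an order that was only partly resolved by the libraries. Glyceraldehyde phosphate dehydrogenase (334 ± 35.5 TPM) was followed by aldolase (166 ± 17.2), hexokinase (152 ± 26.9) and pyruvate kinase (150.2 ± 13.0), and the values of aldolase, hexokinase and pyruvate kinase overlapped between libraries. Lactate dehydrogenase (107 ± 10.3) and phosphoglycerate mutase (85.2 ± 7.55) came next, each below its predecessor in all 3 libraries without overlap. The summed transporters (mostly Slc2a6), phosphoglycerate kinase, triose phosphate isomerase, enolase and glucose phosphate isomerase lay between 53.9 and 82.9 TPM on average. Each overlapped its neighbour in the order. Phosphofructokinase (16.6 ± 2.98) was below glucose phosphate isomerase (53.9 ± 5.05) in all 3 libraries, without overlap. The median log2(TPM + 1) of the 6 lower glycolysis genes was above that of the 10 upper glycolysis genes by 1.71, 1.95 and 1.42 in replicates 1, 2 and 3, a mean of 1.69 ± 0.27. That difference was 0.65 ± 0.15 over the 5 lower and 7 upper genes of 5 TPM or more in every library, that is without Pfkl, Pfkm, Aldoc and Eno2.

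Lactate dehydrogenase transcript came almost wholly from Ldha (chr7:46841475-46855627), the muscle-type lactate dehydrogenase subunit and a known target of HIF-1alpha. Ldha was at 116, 108 and 94.9 TPM in replicates 1, 2 and 3. Ldhb, the heart-type subunit (chr6:142490249-142507957), was at 0.870, 0.960 and 1.18 TPM, from 48.9, 121 and 97.9 counts. Ldha was highest and Ldhb lowest in replicate 1, and the reverse held in replicate 3. The log2 ratio was 6.73 ± 0.37, or 106-fold. Both listed lactate transporters were lower. Slc16a3, the low-affinity exporter known from glycolytic cells and from hypoxia, was at 3.87, 4.08 and 2.38 TPM, and Slc16a1, a transporter for import and export, at 0.440, 0.640 and 0.400 TPM. The log2 ratio of Slc16a3 to Slc16a1 was 2.79 ± 0.30. A further transporter of the same family that is not a member, Slc16a7, was at 15.7, 17.3 and 16.7 TPM and so above both in every library. Bsg, which encodes the chaperone that brings Slc16a1 and Slc16a3 to the membrane, was at 73.0 ± 4.02 TPM (SD, n = 3).

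In the pentose phosphate pathway, the oxidative enzymes G6pdx and Pgd, which make NADPH, and the carbon-shuffling enzymes Tkt and Taldo1 lay between 41.4 and 53.5 TPM on average, and Pgls and Rpia were lower. G6pdx, the entry enzyme (chrX:74409483-74429194), was at 44.7, 45.3 and 34.1 TPM in replicates 1, 2 and 3, Pgd, which makes the second NADPH, at 47.4, 59.7 and 44.3 TPM, and Pgls, the lactonase between them, at 17.5, 17.5 and 16.2 TPM. Pgd was above G6pdx in all 3 libraries by a log2 ratio of 0.29 ± 0.17, the smallest gap being 0.09 in replicate 1. Tkt, the transketolase, was at 49.6 ± 3.49 TPM and Taldo1, the transaldolase, at 53.5 ± 8.98 TPM (SD, n = 3). Their log2 ratio of -0.10 ± 0.15 was positive in 1 library and negative in 2, so no order could be given. Rpia, ribose phosphate isomerase, was the lowest of the pathway at 2.76, 2.65 and 2.46 TPM. The epimerase Rpe, which acts beside it and is not a member, was at 14.6 ± 0.245 TPM. The median log2(TPM + 1) of the 16 glycolysis genes exceeded that of the 6 pentose phosphate genes by 0.15, 0.30 and 0.39 in replicates 1, 2 and 3, a mean of 0.28 ± 0.12. The sum of TPM was 1178, 1215 and 1034 for glycolysis and 215, 241 and 188 for the pentose phosphate genes.

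**Figure D3:**
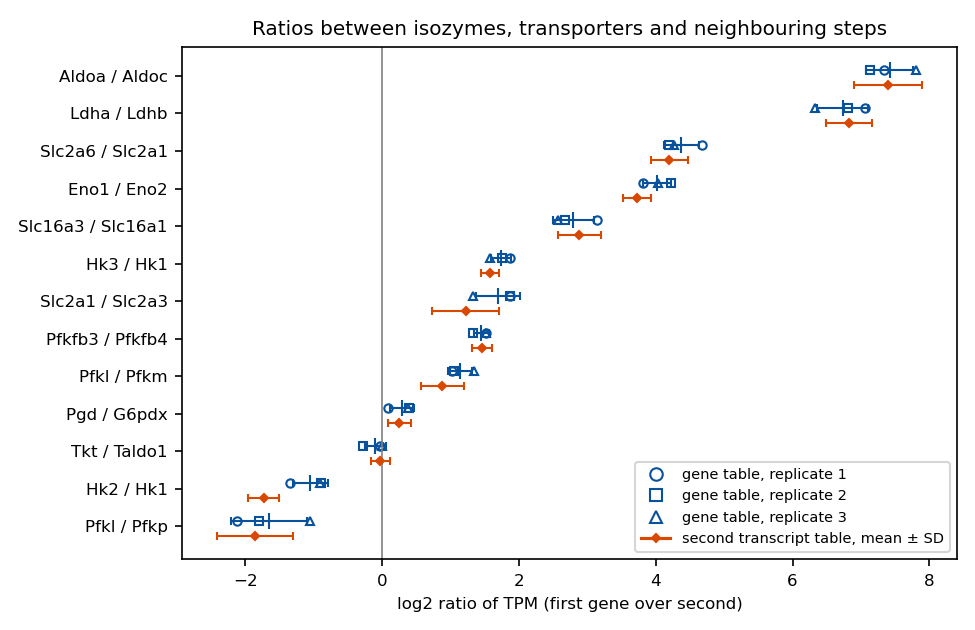
Log2 ratio of TPM between pairs of isozymes, transporters or steps; open symbols are the 3 libraries in the gene table with mean ± SD (n = 3), and orange diamonds are mean ± SD in the second transcript table. Aldoa over Aldoc and Ldha over Ldhb are the largest ratios, at 7.42 and 6.73, and Tkt over Taldo1 lies on 0.

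Of the hypoxia response genes, Hif1a (chr12:73901375-73947530), which encodes the oxygen-regulated subunit, was at 15.8, 14.2 and 12.9 TPM in replicates 1, 2 and 3. Its leading transcript Hif1a-201 took 74.2 ± 1.46% and Hif1a-202, which has another annotated start, 25.2 ± 1.21% of that level. The second transcript table gave them 79.0 ± 0.973% and 19.0 ± 1.59%. Egln1, the main prolyl hydroxylase of HIF-1alpha, was at 2.65, 3.32 and 2.98 TPM. Egln3, a prolyl hydroxylase known to be induced by hypoxia, had 2, 5 and 0 counts in replicates 1, 2 and 3, and 0 counts in replicate 3 allow up to 0.0139 TPM (3 counts). Pooled over the libraries, 2769 counts of Egln1 and 7 of Egln3 gave a ratio per length of 286, with a 95% interval of 139 to 712 that covers counting error only. Pdk1, the kinase that holds back pyruvate dehydrogenase and is a known HIF-1alpha target, was at 2.13, 2.02 and 1.76 TPM. The third prolyl hydroxylase, Egln2, is not a member and was chosen here after its values were seen. At 10.8, 11.5 and 11.6 TPM it was above Egln1 in every library.

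Other genes of the same pathways were taken from 2 further lists. The counts detected stand beside 16.7% of all annotated genes and 40.1% of nuclear protein-coding genes. Of 37 other glycolysis and pentose phosphate genes 12 were detected, led by Bsg, Slc16a7, Rpe and the phosphoglucomutase Pgm1 (9.58 ± 0.211 TPM), and 11 had 0 counts in all libraries. Of 32 other hypoxia response genes 20 were detected. The highest were the lipid droplet coat gene Plin2 (173 ± 37.5 TPM), the cytokine gene Mif (80.5 ± 3.78), the collagen prolyl hydroxylase gene P4ha1 (24.9 ± 4.35) and the mitophagy receptor gene Bnip3l (21.6 ± 2.44; SD, n = 3).

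Variation between libraries was tested in edgeR over all 12256 genes that passed the filter on low counts, by setting the residual deviance of a gene against the dispersion trend. Genes called at an adjusted p under 0.05 made up 1.96% of those tested, and 0 of the 34 members tested were called. Egln3 did not pass the filter. Before adjustment, 2 members passed 0.05, beside 6.88% of all genes tested. These were Pfkp and Aldoc, each with an edgeR adjusted p of 0.54. Scaling by DESeq2 size factors and the DESeq2 dispersion trend called 0 members as well. A missed threshold does not show that levels were equal. The median SD of log2 CPM (counts scaled to library size) was 0.18 over the members tested and 0.16 over all genes tested. It was highest for Aldoc (0.63), Slc2a6 (0.37) and Pfkp (0.36), and lowest for Rpia (0.02), Pgls (0.04) and Eno2 (0.05). Of the 25 other hypoxia response genes tested, 1 was called. This was Ndrg1, a gene known to be induced by hypoxia, at 3.55, 4.85 and 1.49 TPM in replicates 1, 2 and 3 (edgeR, adjusted p = 0.000239).

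**Figure D4:**
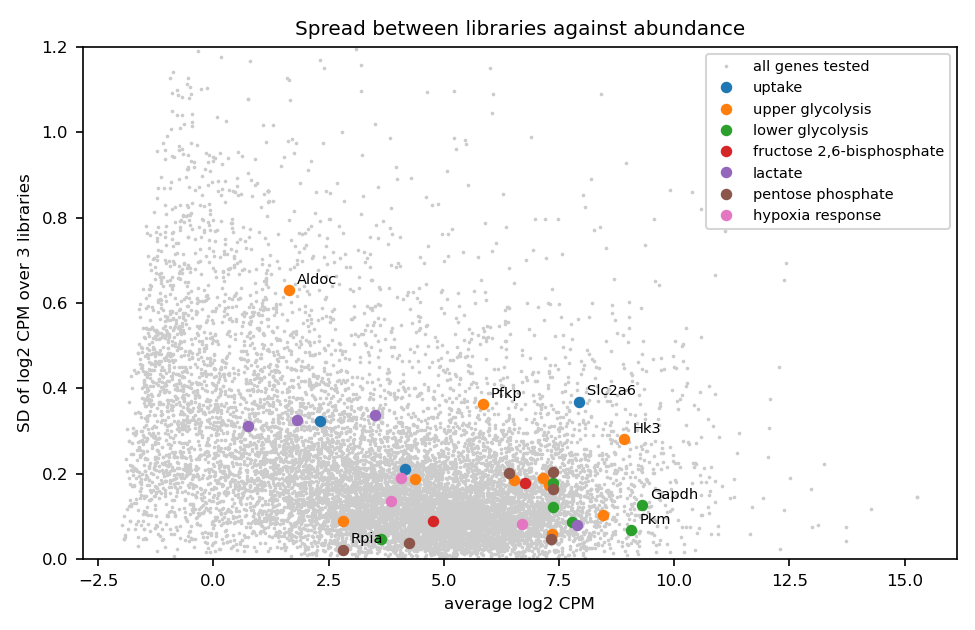
SD of log2 CPM over the 3 libraries against average log2 CPM for the 12256 genes tested (grey; 31 genes lie above the axis limit of 1.2) and the 34 members tested (coloured by role). The members lie within the cloud of genes of like abundance, with Aldoc at 0.63, Slc2a6 at 0.37 and Pfkp at 0.36 as the highest.

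Which library was highest depended on the scale. In deposited TPM, 12, 14 and 5 of the 31 detected members were highest in replicates 1, 2 and 3, beside 47.7, 38.0 and 14.3% of all detected genes, and 5, 4 and 22 were lowest in replicates 1, 2 and 3, beside 24.3, 21.8 and 53.9%. TPM were then rescaled to the sum over nuclear protein-coding genes, which removes the share of 7SL and of all other RNA outside that sum. The sum was 33.2, 29.6 and 28.0% of all TPM in replicates 1, 2 and 3, an order that the 7SL share did not mirror. The 7SK RNA gene Rn7sk was at 21186, 37904 and 76327 TPM. After rescaling, 4, 21 and 6 members were highest in replicates 1, 2 and 3, beside 20.3, 44.1 and 35.7% of detected genes. Lowest were 18, 4 and 9, beside 57.9, 18.3 and 23.8%. Ratios within a library, such as those between isozymes, are not touched by this scaling.

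Transcript shares showed which models carried the levels. Of the 34 members compared, 31 had the same leading transcript in both transcript tables, and 14 had 1 transcript at 90% or more in both. For Tkt the leading transcript was Tkt-209, annotated as a processed transcript and not as protein coding, with 78.2, 81.2 and 79.9% in the first table and 86.0 ± 2.39% in the second. The coding Tkt-201 had 9.06 TPM of the 49.6 TPM of the gene on average. For Gpi1, the transcript ENSMUST00000205870.1, annotated as subject to nonsense-mediated decay, took 29.5 ± 6.79% in the first table and 24.2 ± 6.55% in the second. Hk1 was split over 3 coding transcripts in the first table, ENSMUST00000099691.10 with 38.6 ± 5.51%, ENSMUST00000072357.13 with 37.4 ± 3.63% and ENSMUST00000139228.7 with 23.8 ± 2.17%. The second table gave these 21.3 ± 3.26%, 36.1 ± 0.872% and 24.9 ± 1.70%, so that another transcript, ENSMUST00000072357.13, led on average. In the first table this transcript also led in replicates 1 and 3, at 38.15 and 40.67%, but not in replicate 2, at 33.52%. A further coding transcript, at 0% in the first table, took 14.6 ± 1.25% in the second. In the first table Gapdh was split over Gapdh-203 (55.6 ± 1.85%) and Gapdh-202 (43.6 ± 1.69%). Pfkp, by contrast with Pkm, gave unlike shares in the tables, with 47.7 ± 1.25% for Pfkp-201 in the first and 58.3 ± 2.58% in the second.

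**Figure D5:**
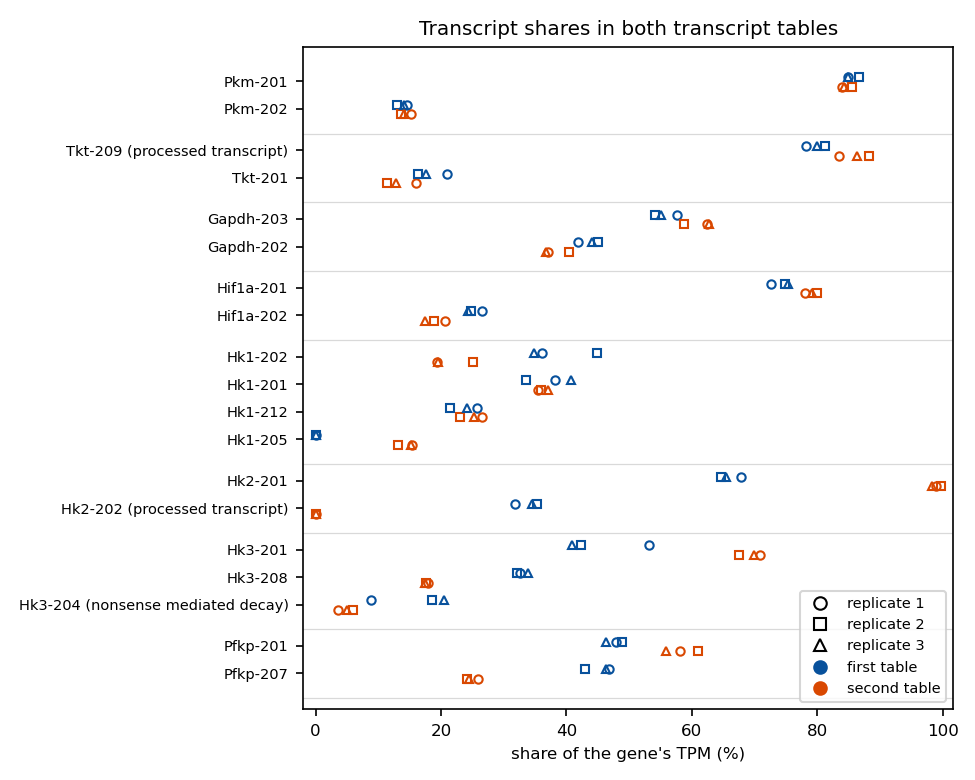
Share of the gene's TPM taken by each transcript of 8 members, in percent, with circles, squares and triangles for replicates 1, 2 and 3, blue for the first and orange for the second transcript table. The Pkm shares are alike in both tables, Tkt-209 leads Tkt in both, and the processed transcript of Hk2 is at 33.9% on average in the first table and at 0% in the second.

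The promoters were searched for the cores of the hypoxia response element, ACGTG and GCGTG, on both strands of the 250 bases before the RefSeq start nearest to the leading transcript (GRCm38.p6). The palindrome CACGTG holds ACGTG on both strands and counts as 2 matches. A window was found for 34 of the 35 members, Slc2a3 having none. In 32 of them the RefSeq start lay within 314 bases of the leading transcript start, on either side of it. The exceptions were Slc16a3, at 587 bases, and Tkt, whose leading transcript Tkt-209 starts 8478 bases away. A window could thus fall within the span of the leading transcript. That of G6pdx (314 bases) lay wholly inside it, and those of Pkm (208 bases) and Tpi1 (138 bases) partly. Of the 34 windows 14 held ACGTG (16.6% of all 32851 windows did, and 22.7% of those of detected genes) and 21 held GCGTG (28.2% of all windows, and 45.4% of those of detected genes). Either core was present in 30 windows (88.2%), against 38.6% of all windows and 57.1% of those of detected genes. These shares are not like for like. A member gave only the window nearest its leading transcript, while the other shares count every window of a gene without that choice. The members also include Aldoc, Ldhb, Slc16a1 and Egln3, which were not detected. The difference with windows chosen alike was not tested. The 4 windows without one were those of Gpi1, Tpi1, Eno2 and Pkm. A match is a description of letters and does not show binding.

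The windows of Ldha and Ldhb are shown because this pair was far apart in level, and that of Slc2a6 because it was the highest listed transporter. They read 5′ to 3′ in the direction of the gene, with the matched bases in capitals. The Ldha window is chr7:46845554-46845803 on the plus strand, the Ldhb window chr6:142507958-142508207 on the minus strand and the Slc2a6 window chr2:27027999-27028248 on the minus strand.
Ldha: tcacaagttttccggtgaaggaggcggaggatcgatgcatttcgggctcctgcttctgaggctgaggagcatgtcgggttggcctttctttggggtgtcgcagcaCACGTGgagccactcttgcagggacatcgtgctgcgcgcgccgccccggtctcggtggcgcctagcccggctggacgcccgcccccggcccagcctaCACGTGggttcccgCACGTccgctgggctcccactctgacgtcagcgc
Ldhb: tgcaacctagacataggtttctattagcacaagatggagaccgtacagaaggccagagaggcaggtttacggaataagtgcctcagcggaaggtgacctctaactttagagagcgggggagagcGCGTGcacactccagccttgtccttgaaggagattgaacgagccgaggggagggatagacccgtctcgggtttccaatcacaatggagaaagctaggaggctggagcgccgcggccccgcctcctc
Slc2a6: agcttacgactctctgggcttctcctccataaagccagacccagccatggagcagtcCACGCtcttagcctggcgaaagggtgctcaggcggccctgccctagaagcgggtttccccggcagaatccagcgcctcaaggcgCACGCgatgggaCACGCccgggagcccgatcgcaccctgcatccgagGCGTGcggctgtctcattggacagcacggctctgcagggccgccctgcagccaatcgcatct
The Ldha window had 5 matches to ACGTG, of which 4 came from 2 copies of the palindrome, the most of any member, and none to GCGTG. The Ldhb window had 1 match to GCGTG and none to ACGTG. The Slc2a6 window had 4 matches to GCGTG, the most of any member, and none to ACGTG, and the Slc2a1 window had 1 match to each. Slc16a1, at 0.493 TPM on average, had 2 matches to each core. Pkm, at 150.2 TPM, had none, in a window that lay partly inside its leading transcript.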

How the data were processed

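RNA (1 µg a library, inserts of 250 to 400 nt, per the labels' protocols) came from 3 libraries that form 1 group. The deposited files of a library are 1 gene table and 2 transcript tables on mm10 and GENCODE M21, according to their README notes; the programs are not stated. Expected counts (estimated counts in the second transcript table) are deposited without normalization and are not whole. TPM are the authors' values, scaled for effective length. The percent values in the first transcript table were computed by the authors, per the file headers, as each transcript's part of its gene.

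PhiX (0.227, 0.110 and 0.0959% of counts in replicates 1, 2 and 3), 96 ERCC and 26248 tRNA features entered neither library sizes nor tests. Expected counts were rounded and scaled by TMM, and the spread of each gene was tested in edgeR 4.0.16 (R 4.3.3) after filterByExpr, by residual deviance against a chi-square distribution with 2 degrees of freedom, with Benjamini-Hochberg adjustment over all genes tested. DESeq2 1.42.0 served for alternatives. List differences used log2(TPM + 1), and ratios used TPM without a pseudocount. For 0 counts the limit is 3 counts in TPM. Intervals and floors cover counting error only. The labels give no pairing or batch. Members, lists and tests were chosen with earlier results of these data known. All 35 members were named, with the 4 highest genes of each further list and any other called variable; other genes named were chosen after their values were seen.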

Additional observations from a re-analysis of the deposited data

How the results depend on the processing

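The log2 ratio of Egln1 to Egln3 has no value in replicate 3, where Egln3 had 0 counts, and was left out here. No list difference and none of the other 13 ratios changed sign under any of the other settings. With genes of 5 TPM or more only, lower exceeded upper glycolysis by 0.65. A pseudocount of 1 TPM on both genes moved 8 ratios by more than their SD, to 1.13 for Slc2a1 over Slc2a3, 4.04 for Slc2a6 over Slc2a1, 0.80 for Pfkl over Pfkm, 1.30 for Pfkfb3 over Pfkfb4, 6.39 for Aldoa over Aldoc, 3.68 for Eno1 over Eno2, 5.74 for Ldha over Ldhb and 1.55 for Slc16a3 over Slc16a1. By construction a pseudocount shrinks ratios with a low denominator. The second transcript table gave 1.22 for Slc2a1 over Slc2a3, -1.73 for Hk2 over Hk1, 1.57 for Hk3 over Hk1, 0.88 for Pfkl over Pfkm and 3.73 for Eno1 over Eno2. The cause was not tested. Members highest in replicate 1 numbered 4 after rescaling over nuclear protein-coding genes and 5 in the second table, but 12, as in the gene table, once the second table was brought to the protein-coding total of the gene table. Members detected ranged from 22 (at 5 TPM) to 34 (rescaled TPM), with 29 in the second table and 31 once that table was brought to the same total, a setting chosen after seeing the data. No member was called variable in edgeR under any of the 8 other settings, where 0 to 3 members passed 0.05 before adjustment, the smallest adjusted p being 0.123 for Aldoc with a common dispersion. Without replicate 1, 2 or 3, genes called variable numbered 119, 102 and 82, against 240 with all 3 libraries. Of 66 transcript shares compared between the tables, 46 moved by more than their SD. At these depths 3 counts correspond to at most 0.0735 TPM for a member, and 3 libraries limit every SD.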
